A study of Mus musculus with 2 samples.

Results

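The Mir30 family of microRNA genes was described in the midbrain of mouse embryos of strain B6NCrl at embryonic day 12.5. Small RNA under 30 nucleotides was sequenced from healthy embryos of both sexes, pooled, with no allele, agent or treatment named. Tissue of 88 embryos went into replicate 2 and of 120 embryos into replicate 1, so the spread between the libraries is a spread between pools and not between animals. The 2 libraries form 1 group, and no conditions could be compared. The members are the 6 genes Mir30a, Mir30b, Mir30c-1, Mir30c-2, Mir30d and Mir30e, found among the 1973 genes of both count tables by their Ensembl identifiers. All 6 had at least 10 counts in both libraries, the limit at which a gene was called quantified.

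A microRNA is cut from a hairpin transcript by Drosha and then Dicer, which leaves a 5p arm and a 3p arm, and an Argonaute protein keeps 1 of them to repress messenger RNAs that pair with its seed. The seed is the stretch from base 2 to base 8 of the mature arm, and microRNAs with the same seed are grouped in a family because they can share targets. The Mir30 family is known as a broadly expressed family of vertebrate tissues, with described roles in kidney development in Xenopus and in the repression of the autophagy gene BECN1 in human cells.

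The 6 genes lie in 3 pairs, each on 1 strand of 1 chromosome (mm10). Mir30e (chr4:120772606-120772697) and Mir30c-1 (chr4:120769534-120769622) lie on the minus strand in introns of Nfyc, which encodes a subunit of the transcription factor NF-Y, with 2.98 kb between them. Mir30a (chr1:23272269-23272339) lies on the plus strand outside any annotated gene of that strand. Its partner Mir30c-2 (chr1:23291701-23291784), 19.4 kb downstream, lies within the single-transcript non-coding gene Gm27028, in an exon. Mir30d (chr15:68341208-68341289) lies on the minus strand within an exon of Gm20732, a non-coding gene, and Mir30b (chr15:68337415-68337510), 3.70 kb downstream of it, overlaps an exon of the non-coding gene Gm26621 by 16 bases. The files name the genes ENSMUSG00000065409.1 (Mir30e), ENSMUSG00000065490.1 (Mir30c-1), ENSMUSG00000065405.2 (Mir30a), ENSMUSG00000065567.1 (Mir30c-2), ENSMUSG00000065437.1 (Mir30d) and ENSMUSG00000065476.2 (Mir30b).

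The mature arms show what the family shares and where its members part. RefSeq sequences on GRCm38.p6 were matched for 4 of the 6 members, and they are printed 5′ to 3′ with the seed in capitals.
mmu-miR-30e-5p (chr4:120772660-120772681, minus strand): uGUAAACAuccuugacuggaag
mmu-miR-30a-5p (chr1:23272274-23272295, plus strand): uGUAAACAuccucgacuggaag
mmu-miR-30c-5p (from Mir30c-1 at chr4:120769584-120769606, minus strand, and from Mir30c-2 at chr1:23291714-23291736, plus strand): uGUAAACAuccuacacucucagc
mmu-miR-30e-3p (chr4:120772618-120772639, minus strand): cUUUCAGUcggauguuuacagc
mmu-miR-30a-3p (chr1:23272315-23272336, plus strand): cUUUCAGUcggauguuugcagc
mmu-miR-30c-1-3p (chr4:120769546-120769567, minus strand): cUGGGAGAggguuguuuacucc
mmu-miR-30c-2-3p (chr1:23291754-23291775, plus strand): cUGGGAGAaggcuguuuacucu
The 5p arms of the 4 genes carry 1 seed, GUAAACA, and are identical over their first 12 bases. Counted from 1 at the 5′ end, miR-30a-5p and miR-30e-5p differ by 1 substitution, C13U, and their 3p arms by 1, G18A. The 5p arm of miR-30c differs from that of miR-30a at 5 of 22 positions, C13A, G14C, G18C, G19U and A20C.

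The 3p arms fall into groups of their own. Those of Mir30e and Mir30a share the seed UUUCAGU, which no other gene of the RefSeq table carried. No RefSeq sequence was matched for Mir30b or Mir30d, so the 3p seeds of these 2 members were not compared. Those of Mir30c-1 and Mir30c-2 share UGGGAGA, which 1 other gene of the table carried (Mir6958, named after its value was seen), and differ by G9A, U12C and C22U. The 2 genes of the Nfyc introns therefore encode arms of unlike 3p seeds, and among the 4 matched genes each is closest in sequence to a gene of the chromosome 1 pair and not to its own neighbour.

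The longest stretch that Mir30c-1 and Mir30c-2 have in common covers the whole 5p arm and the first bases of the loop, 28 bases in all, and is shown in capitals in both hairpins. For Mir30e and Mir30a the longest common stretch is 18 bases long and lies on the 3p side of the hairpin.
Mir30c-1 (chr4:120769534-120769622, minus strand): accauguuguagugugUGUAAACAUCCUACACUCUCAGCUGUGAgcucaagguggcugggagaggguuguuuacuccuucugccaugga
Mir30c-2 (chr1:23291701-23291784, plus strand): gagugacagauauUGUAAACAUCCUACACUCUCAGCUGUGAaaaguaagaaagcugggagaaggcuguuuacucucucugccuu
Mir30e (chr4:120772606-120772697, minus strand): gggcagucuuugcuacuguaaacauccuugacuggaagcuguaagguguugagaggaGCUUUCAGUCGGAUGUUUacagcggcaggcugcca
Mir30a (chr1:23272269-23272339, plus strand): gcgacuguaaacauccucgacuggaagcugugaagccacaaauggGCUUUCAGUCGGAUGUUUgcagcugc

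A read of 18 to 28 bases that starts at the first base of miR-30c-5p matches both Mir30c hairpins, and only a read of 29 bases would match 1 of them. Reads of those lengths from the start of any other arm of the 4 genes matched no second hairpin among the 1005 of the RefSeq table. For miR-30a-3p only 8 of the 12 lengths ended within the hairpin and were tried. The hairpins of Mir30b and Mir30d were not among those searched, so matches to them were not tested. Of the 22-base windows, 7 of 68 in Mir30c-1 and 7 of 63 in Mir30c-2 occurred in the other copy, against 0 of 71 in Mir30e and 0 of 50 in Mir30a. The tables give reads that aligned to several places in a row of their own, and the program that counted them is not named. If, as that layout implies, such reads are in no gene's count, the counts of Mir30c-1 and Mir30c-2 leave out miR-30c-5p reads of these lengths and are lower limits.

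**Figure D1:**
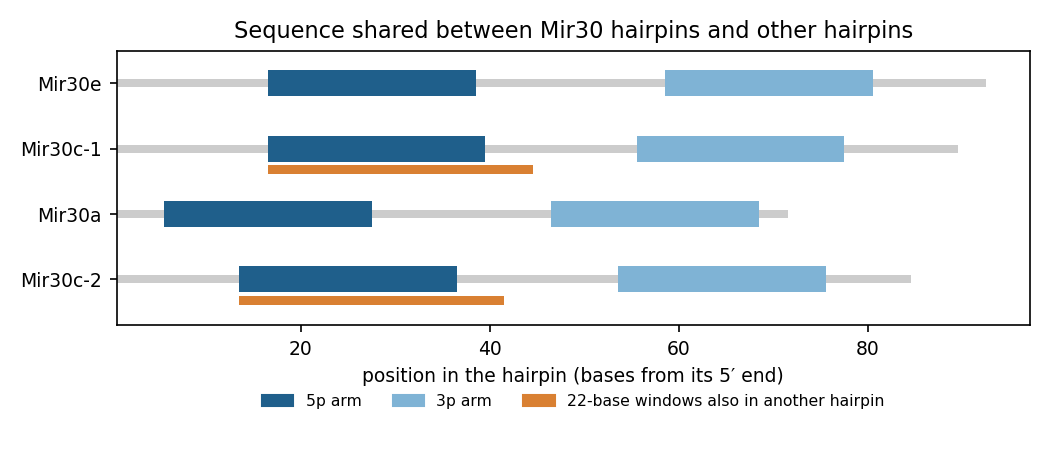
Hairpins of the 4 matched members, with the position in bases from the 5′ end on the x axis, the 5p arm in dark blue, the 3p arm in light blue and, in orange, the stretch covered by 22-base windows that also occur in another hairpin. Orange runs under the 5p arms of Mir30c-1 and Mir30c-2, over 28 bases in each, and nowhere in Mir30e or Mir30a. Hairpins of Mir30b and Mir30d were not among those searched.

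Levels are given in CPM, counts per 1000000 own-strand gene counts. They were not divided by length, since the reads are shorter than a hairpin and come from arms of 22 or 23 bases. Intervals are 95% Wilson intervals, which cover counting error only and not the spread between pools. Reads copied by PCR are not independent molecules, so the intervals may be too narrow even for counting error. The total of own-strand gene counts was 2805487 in replicate 2 and 4629302 in replicate 1. Against these totals, 3 counts (the limit that a count of 0 allows) equal 1.07 CPM in replicate 2 and 0.648 CPM in replicate 1, far below every member.

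The family as a whole held 52136 CPM in replicate 2 and 53988 CPM in replicate 1, a mean of 53062 ± 1309 CPM (SD, n = 2), or 5.31% ± 0.13 of assigned counts. Mir30e, Mir30a and Mir30d held 99.6% of the family's counts in both replicates. The other 3 genes summed to 210.3 CPM in replicate 2 and 242.8 CPM in replicate 1.

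Mir30e, the upstream gene of the Nfyc pair, had 80237 counts or 28600 CPM (28406 to 28796) in replicate 2 and 142315 counts or 30742 CPM (30585 to 30900) in replicate 1. It stood at rank 7 of all genes in replicate 2 and at rank 6 in replicate 1. Mir30a, the upstream gene of the chromosome 1 pair, had 40907 counts or 14581 CPM (14442 to 14722) in replicate 2 and 68329 counts or 14760 CPM (14651 to 14870) in replicate 1. These 2 genes, whose 5p arms differ at 1 base, were thus both among the 16 most abundant genes of each library. Mir30d, the upstream gene of the chromosome 15 pair, had 24533 counts or 8745 CPM (8636 to 8854) in replicate 2 and 38158 counts or 8243 CPM (8161 to 8325) in replicate 1, at ranks 27 and 29.

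Mir30b, the chromosome 15 partner, had 263 counts or 93.7 CPM (83.1 to 105.8) in replicate 2 and 583 counts or 125.9 CPM (116.1 to 136.6) in replicate 1. Mir30c-1, the second gene of the Nfyc introns, had 206 counts or 73.4 CPM (64.1 to 84.2) in replicate 2 and 330 counts or 71.3 CPM (64.0 to 79.4) in replicate 1. Mir30c-2 had 121 counts or 43.1 CPM (36.1 to 51.5) in replicate 2 and 211 counts or 45.6 CPM (39.8 to 52.2) in replicate 1. These 3 genes ranked between 207 and 261 in the libraries, below the middle of the 380 quantified genes.

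The order from highest to lowest was Mir30e, Mir30a, Mir30d, Mir30b, Mir30c-1 and Mir30c-2 in both libraries, and for each pair of neighbours in that order both values of the higher gene lay above both values of the lower one. The closest neighbours were Mir30b and Mir30c-1 in replicate 2 and the 2 Mir30c genes in replicate 1. Mir30b exceeded Mir30c-1 by 1.28-fold (95% counting interval 1.06 to 1.53) in replicate 2 and by 1.77-fold (1.54 to 2.02) in replicate 1. Mir30c-1 exceeded Mir30c-2 by 1.70-fold (1.36 to 2.13) in replicate 2 and by 1.56-fold (1.32 to 1.86) in replicate 1, on counts that, by the same reading of the tables, exclude reads common to both. Mir30e exceeded Mir30a by 1.96-fold in replicate 2 and 2.08-fold in replicate 1, and Mir30a exceeded Mir30d by 1.67-fold in replicate 2 and 1.79-fold in replicate 1.

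**Figure D2:**
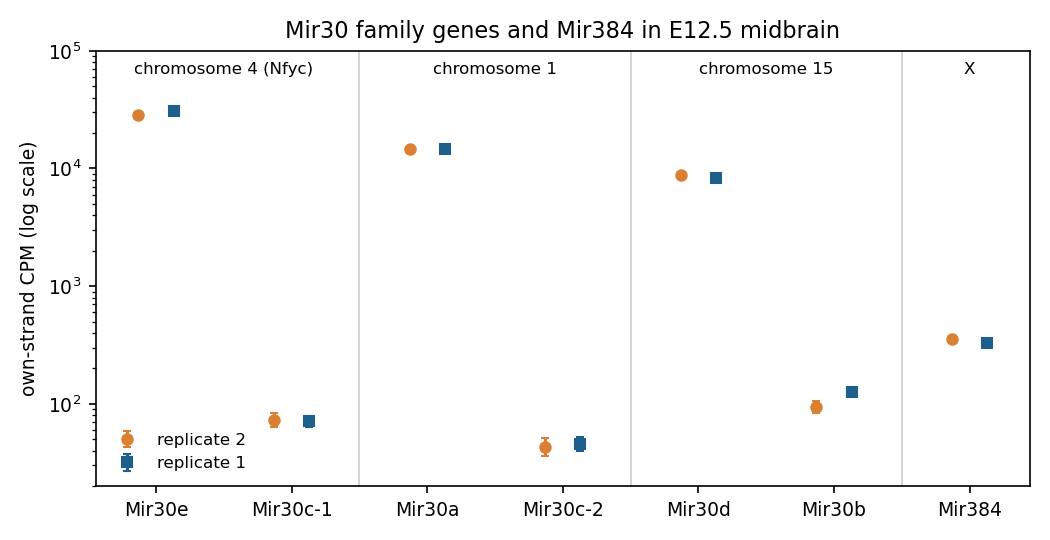
Own-strand CPM (y axis, log scale) of the 6 Mir30 genes, arranged by genomic pair, and of Mir384, with replicate 2 as circles left of replicate 1 as squares and 95% Wilson intervals as bars. In each pair the first gene shown lies at 8243 CPM or more and the second at 125.9 CPM or less, and both libraries give the same order.

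In each of the 3 pairs the upstream gene on the strand had the higher count of assigned reads. Mir30e exceeded Mir30c-1 by 389.5-fold (95% counting interval 339.7 to 446.6) in replicate 2 and by 431.3-fold (387.1 to 480.5) in replicate 1. Mir30a exceeded Mir30c-2 by 338.1-fold (282.8 to 404.1) in replicate 2 and by 323.8-fold (282.9 to 370.7) in replicate 1. If miR-30c-5p reads were left out, the fold is too high for each pair whose Mir30c gene gave such reads. The counts do not show which gene that was. The order within these 2 pairs then holds only for the reads that were assigned, and the number left out was not tested.

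Mir30d exceeded Mir30b by 93.3-fold (82.6 to 105.3) in replicate 2 and by 65.5-fold (60.3 to 71.0) in replicate 1. On the log2 scale, this ratio was higher in replicate 2 than in replicate 1 by 0.51 (95% counting interval 0.30 to 0.72). The corresponding difference was -0.15 (-0.40 to 0.10) for Mir30e over Mir30c-1 and 0.06 (-0.26 to 0.39) for Mir30a over Mir30c-2, and both intervals contain 0. The chromosome 15 pair was thus the 1 pair of 3 for which a move beyond counting error was seen. The intervals of the other 2 pairs rest on Mir30c counts of 121 to 330 and leave room for smaller moves.

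**Figure D3:**
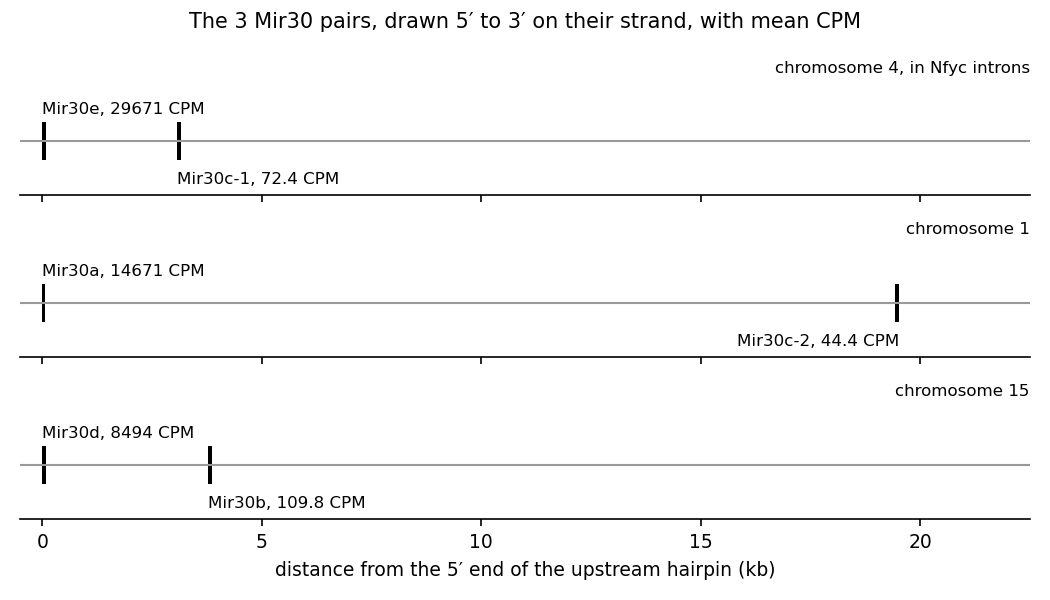
Positions of the 3 pairs, drawn to scale from the upstream to the downstream hairpin on their strand, with the distance in kb on the x axis and the mean CPM of each gene beside it. The gap is 2.98 kb on chromosome 4, 19.4 kb on chromosome 1 and 3.70 kb on chromosome 15. By the reads that were assigned, the upstream gene has the higher level in all 3.

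Summed by pair, the Nfyc-hosted genes held 28673 CPM in replicate 2 and 30814 CPM in replicate 1, a mean of 29743 ± 1513 CPM (SD, n = 2). The chromosome 1 pair held 14624 CPM in replicate 2 and 14806 CPM in replicate 1 (14715 ± 128), and the chromosome 15 pair held 8838 CPM in replicate 2 and 8369 CPM in replicate 1 (8604 ± 332). By the reads that were assigned, the order of the pairs was the same in both libraries, and the gaps between pairs were many times the SD of each. That SD does not cover reads left out of the counts.

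The Nfyc-hosted genes gave 55.0% of the family's counts (95% Wilson interval 54.7 to 55.3%) in replicate 2 and 57.1% (56.9 to 57.3%) in replicate 1, a mean of 56.0% ± 1.47 (SD, n = 2). They held more than the 4 genes outside Nfyc together, which summed to 23463 CPM in replicate 2 and 23174 CPM in replicate 1. The chromosome 1 pair gave 28.1% in replicate 2 and 27.4% in replicate 1, and the chromosome 15 pair 17.0% in replicate 2 and 15.5% in replicate 1. These shares rest almost wholly on Mir30e, Mir30a and Mir30d, since Mir30c-1 gave 0.141% in replicate 2 and 0.132% in replicate 1, and Mir30c-2 gave 0.0827% in replicate 2 and 0.0844% in replicate 1. The reads of miR-30c-5p, which could have come from the Nfyc pair or from the chromosome 1 pair, are in neither sum under that reading.

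**Figure D4:**
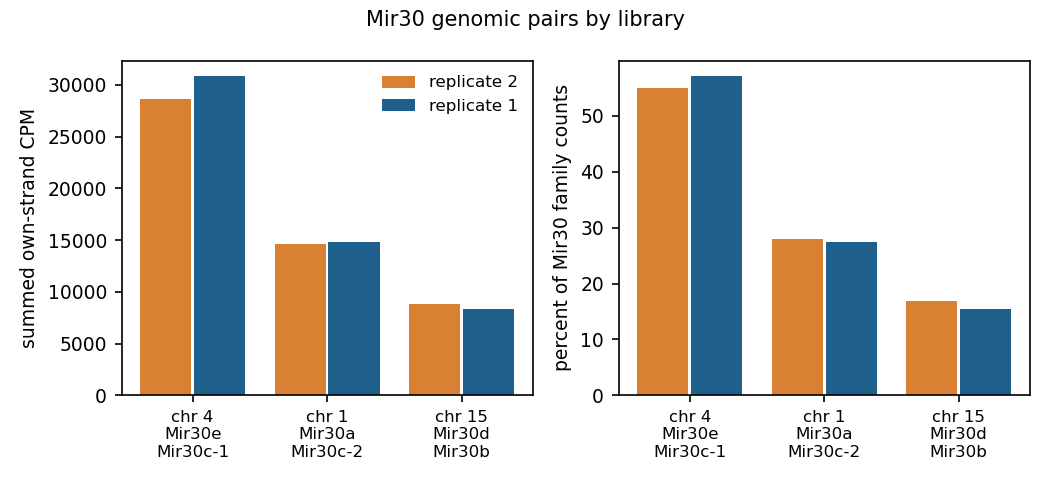
Summed own-strand CPM (left) and percent of all Mir30 family counts (right) of the 3 genomic pairs, with replicate 2 left of replicate 1. The chromosome 4 pair in Nfyc stands at 28673 and 30814 CPM, above the chromosome 1 pair and the chromosome 15 pair in both libraries.

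Each gene's counts in replicate 2 and replicate 1 were compared by Fisher's exact test (two-sided), with Benjamini-Hochberg adjustment over the 380 quantified genes. The test asks whether a gene differs between these libraries by more than the noise of counting, and it tests no condition. At an adjusted p under 0.05, 3 of the 6 members differed, where 54.2% of all quantified genes did. Mir30d was called higher in replicate 2, against 27.1% of all genes, and Mir30e and Mir30b were called lower in replicate 2, against 27.1% of all genes. The members' share is near the background and is no feature of the family.

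Mir30e had a log2 ratio, replicate 2 over replicate 1, of -0.10 ± 0.01 (counting SE, adjusted p = 2.1e-61 by the exact test), a 1.07-fold lower level in replicate 2. Mir30d had a log2 ratio of 0.09 ± 0.01 (adjusted p = 1.8e-12 by the exact test). Counts this large make differences of a few percent exceed counting noise. Mir30b had the largest difference of the family, with a log2 ratio of -0.43 ± 0.11 (adjusted p = 0.00015 by the exact test), or 1.34-fold lower in replicate 2.

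Mir30a had a log2 ratio of -0.02 ± 0.01 (adjusted p = 0.087 by the exact test) with plain totals. It was called with DESeq2 size factors, at -0.05 (adjusted p = 6.2e-09 by the exact test), and its sign turned with TMM scaling, at 0.01 (adjusted p = 0.38 by the exact test). Mir30c-1 had a log2 ratio of 0.04 ± 0.13 and Mir30c-2 of -0.08 ± 0.16, and neither was called (adjusted p = 0.83 and 0.76 by the exact test). Their 95% counting intervals, -0.21 to 0.29 for Mir30c-1 and -0.40 to 0.24 for Mir30c-2, leave room for differences as large as those of Mir30e or Mir30d.

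The median log2 ratio of the 6 members was -0.05, against 0.04 over the 380 quantified genes, and their median absolute log2 ratio was 0.08, against 0.24 over all. Among the 98 genes of at least 1000 mean CPM the median absolute log2 ratio was 0.19, and 85 of them were called. The 3 members in that range, Mir30e, Mir30a and Mir30d, had log2 ratios from -0.10 to 0.09.

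**Figure D5:**
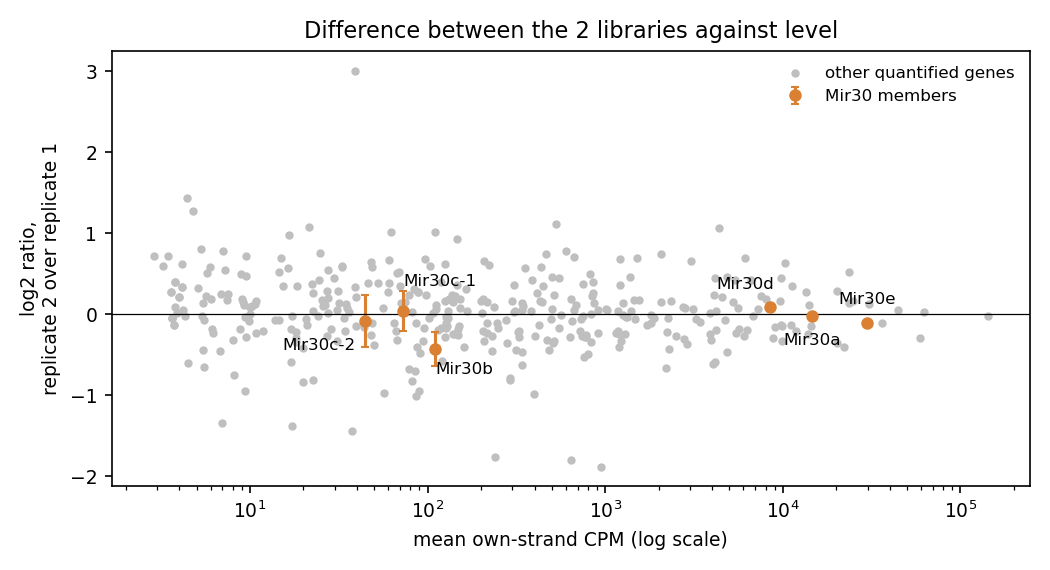
Log2 ratio of replicate 2 over replicate 1 (y axis) against mean CPM (x axis, log scale) for the 380 quantified genes in grey and the 6 Mir30 genes in orange, with 95% counting intervals. Mir30e, Mir30a and Mir30d lie between -0.10 and 0.09, and Mir30b lies at -0.43.

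Outside the 6 members, the RefSeq table held 1 other gene with the seed GUAAACA, Mir384 on the X chromosome (chrX:105344282-105344369, minus strand), which lies in no annotated gene of that strand. Its 5p arm is printed with the seed in capitals, to show where the likeness to the family ends.
mmu-miR-384-5p (chrX:105344332-105344354, minus strand): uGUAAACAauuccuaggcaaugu
It matches miR-30c-5p over its first 8 bases and at 11 of 23 positions in all. Mir384 (ENSMUSG00000065499.1) had 998 counts or 355.7 CPM (334.3 to 378.5) in replicate 2 and 1533 counts or 331.2 CPM (315.0 to 348.1) in replicate 1. It thus lay above the 3 low members and below Mir30d in both libraries, and its log2 ratio of 0.10 ± 0.06 was not called (adjusted p = 0.13 by the exact test).

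No read was counted on the opposite strand of any member in either library. The RefSeq and GENCODE annotations place another microRNA gene, Mir30f, on the plus strand over Mir30e, and the count of 0 opposite-strand reads there allows at most 1.07 CPM in replicate 2 and 0.648 CPM in replicate 1. The counts of either strand equalled the own-strand counts for all 6 members in both libraries.

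Another 3 broadly expressed families were set beside the members. The Mir30 family, at 53062 ± 1309 CPM, exceeded Mir26 at 23566 ± 1662 CPM over 3 genes, Mir101 at 2197 ± 88.2 CPM over 2 genes and Mir29 at 220.5 ± 9.33 CPM over 4 genes (SD, n = 2 each). The Mir26 sum came from Mir26b at 23528 ± 1664 CPM. Mir26a-1 at 4.41 ± 1.70 CPM and Mir26a-2 at 34.0 ± 0.75 CPM encode the same 5p arm, as the Mir30c genes do. Mir29b-1 at 1.43 ± 0.50 CPM and Mir29b-2 at 2.33 ± 1.28 CPM encode the same 3p arm. The Mir30, Mir26 and Mir29 sums would all omit reads of such shared arms, so the order of the families holds for the reads that were assigned.

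Across the table, 87 genes with RefSeq sequences had an arm identical to that of another gene, and 44 of them were quantified, with a median of 177.2 CPM. Of the 829 genes with no such arm, 301 were quantified, with a median of 160.9 CPM. At least 1000 CPM was reached by 9 of the 44 genes and by 82 of the 301, and the upper quartiles were 554.2 and 1217 CPM. A gene with a shared arm may still be counted through its other arm, so what sharing takes from a count was not tested. Mir30c-1, at 72.4 CPM, lay below 27 of the 44 genes with a shared arm. Mir30c-2, at 44.4 CPM, lay below 34 of them and below their lower quartile of 48.7 CPM.

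The genes nearest to each member in level were found by Euclidean distance in log2(CPM + 1) over the 2 libraries among 374 other quantified genes. They were Mir99b and Mir130a for Mir30e, Mir342 and Mir149 for Mir30a, Mir21a and Mir135b for Mir30d, and Mir1981 and Mir362 for Mir30b. For Mir30c-1 they were Mir6540 and Mir24-2, and for Mir30c-2 Mir8114 and Mir8112. The distances ran from 0.06 for Mir8114 to 0.40 for Mir130a. With 2 libraries of 1 tissue this is a likeness in level and not in pattern.

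The labelled tissue was checked against marker microRNAs. The neural list had counts in both libraries for all 9 genes found, of which 7 were quantified. It summed to 7507 CPM in replicate 2 and 8333 CPM in replicate 1, led by Mir137 and Mir153. Its genes went both ways, with 2 called higher in replicate 2 and 3 called lower, Mir137 and Mir153 among the latter. The Mir124a genes of this list were low. The highest of them, Mir124a-2, stood at 14.3 CPM in replicate 2 and 14.9 CPM in replicate 1. Whether reads of the Mir124a genes aligned to several places was not tested. The 3 Mir135 genes, a list chosen for midbrain patterning, summed to 9253 CPM in replicate 2 and 10276 CPM in replicate 1. Most of this came from Mir135b, at 8535 CPM in replicate 2 and 9520 CPM in replicate 1. Mir135b was called lower in replicate 2, and the other Mir135 genes were not called. Several lists for other cell types also differed between the libraries. The mural and mesenchymal list, counted in both libraries for 6 of 6 genes, stood at 23071 CPM in replicate 2 and 15359 CPM in replicate 1, the endothelial gene Mir126a at 26243 CPM in replicate 2 and 23434 CPM in replicate 1, and the choroid plexus list of 4 genes at 822 CPM in replicate 2 and 2913 CPM in replicate 1. The epithelial list stood at 3549 CPM in replicate 2 and 2764 CPM in replicate 1, with 6 of 7 genes called higher in replicate 2. The hindbrain and spinal cord list stood at 418.8 CPM in replicate 2 and 225.3 CPM in replicate 1, with all 4 quantified genes called higher in replicate 2, and the liver gene Mir122 at 69.5 CPM in replicate 2 and 8.64 CPM in replicate 1. The leukocyte list stood at 686 CPM in replicate 2 and 566 CPM in replicate 1, with 2 genes called higher in replicate 2 and 1 lower. The erythroid list stood at 271.3 CPM in replicate 2 and 412.8 CPM in replicate 1. Its genes went opposite ways, with Mir451a called lower in replicate 2 and Mir486 called higher. The muscle list stood at 22.8 CPM in replicate 2 and 22.2 CPM in replicate 1, all of it from Mir206. The other muscle genes found, Mir1a-1 and the Mir133a genes, had no counts. Whether reads of these other genes aligned to several places was not tested, so their lack of counts does not show whether muscle was present. The part of these lists in the differences of Mir30e, Mir30d and Mir30b was not tested.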

How the data were processed

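Small RNA was sequenced from 2 pools of embryonic day 12.5 midbrain. The deposited files hold raw counts, not normalized. They come from reads aligned to mm10 and annotation M4, per the deposited read-me files. No source used here names the aligner or the counting program. The tables hold 3 columns, reads of either strand, of the gene's own strand and of the opposite strand, and the own-strand column was used. Reads that were unmapped, aligned to several places or lay in no gene stand in rows of their own, 58.2% of the reads of replicate 2 and 56.9% of those of replicate 1, and were left out of totals and tests.

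Symbols, positions and host genes came from GENCODE M21 on GRCm38, the assembly of mm10, where 1894 of 1973 identifiers were found. The other 79 held 6 reads in replicate 2 and 2 in replicate 1. Mir30a carries a later identifier version there than in the files, so its span may differ from the one counted. CPM used the own-strand gene total. Genes with at least 10 counts in both libraries were tested with Fisher's exact test (SciPy 1.17.1), which was tested on simulated data. The simulated counts held counting noise only, so they do not show how the test behaves with a wider spread between libraries. Alternatives used TMM (edgeR 4.0.16), DESeq2 1.42.0 size factors, reads of either strand, a total without Mir99a, other count limits and an exact Poisson rate test. A chi-square of 161.7 per degree of freedom showed that the libraries were not 1 library deposited again. The p-values measure only the difference between these 2 libraries, and the spread between them may be technical in part.

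The text names the 6 members, other genes with the family seed, host genes, the 2 genes nearest each member in level, the Mir26, Mir29 and Mir101 families, and up to 3 genes of each marker list. The members and lists were chosen with earlier results of these data known.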

Additional observations from a re-analysis of the deposited data

Results flagged for a closer look

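Reads that aligned to several places were 33.4% of all reads in replicate 2 and 33.4% in replicate 1, numbering 2242911 in replicate 2 and 3589504 in replicate 1. They stood out as a signal outside the gene counts, above what a count of 0 allows. The deposited tables do not say which microRNAs these reads match. How many of them were miR-30c-5p was not tested.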

How the results depend on the processing

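No paired analysis was possible because the 2 libraries form 1 group. With the total taken without Mir99a, the sums became 61919 CPM for the Mir30 family, 34709 CPM for the chromosome 4 pair, 17171 CPM for the chromosome 1 pair and 10039 CPM for the chromosome 15 pair, because the denominator shrank. With reads of either strand, whose total is larger, the chromosome 1 pair gave 14357 CPM, against an SD of 128 CPM in the main value. Of 30 alternative values for sums and counts of calls, the other 25 moved by less than 1 SD or, for counts, by less than 1.5 times. Shares and pair ratios cannot change with reads of either strand, since no member has opposite-strand counts, and with 2 libraries the mean without either one always lies within 1 SD, so these 20 values could not have moved further. Without either replicate in turn, the family sum ranged from 52136 to 53988 CPM, the share of the chromosome 4 pair from 55.0 to 57.1%, and the log2 ratio of Mir30d over Mir30b from 6.03 to 6.54.

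Among log2 ratios of single members, Mir30a reversed to 0.0099 with TMM, and it was called at -0.05 with DESeq2 size factors and at -0.02 without Mir99a (adjusted p = 0.039 by the exact test), so 4 members were called under each of these. Mir30e, Mir30d and Mir30b were called under all 7 alternatives, and Mir30c-1 and Mir30c-2 under none. Genes called numbered 196 to 214, against 206 in the main comparison, and 50% of those calls were higher in replicate 2, 54.7% with TMM and 44.3% with DESeq2 size factors. Without a count limit 746 genes were tested and 26.7% called. With at least 100 counts in both libraries 270 were tested and 72.6% called.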
